A study of Mus musculus with 13 samples.

Results

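The genes described here encode dioxygenases that use 2-oxoglutarate, iron and oxygen, leaving aside the KDM3 and TET enzymes. They were chosen by symbol from a list of 44 names, with no measured value in the rule, and 42 of the names were found among the 20325 genes of the files. Tmlhe and Aspnd1 matched no row and are not analysed here. The 42 members fall into 5 subgroups. Those named as histone demethylases are 17 genes of the Kdm, Phf and Jmjd series with Jhdm1d, the files' symbol for Kdm7a. The HIF hydroxylases are 4 (Egln1, Egln2, Egln3 and Hif1an). The collagen hydroxylases are 9, the P4ha and Plod genes with the prolyl 3-hydroxylases Lepre1, Leprel1 and Leprel2. The genes related to bacterial AlkB are 9 (Alkbh1 to Alkbh8 and Fto), and 3 members are others (Phyh, Asph and Bbox1). A filter on low counts passed 39 members. Kdm4d, P4ha3 and Bbox1 did not pass it, and had at most 6, 12 and 1 expected counts in any pre-iPSC library.

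Enzymes of this family oxidise 2-oxoglutarate to succinate and put a hydroxyl group on a protein, a nucleic acid or a small molecule. A hydroxylated methyl group falls off, which is how members of the family erase methyl marks from histone lysines, RNA and DNA. Ascorbate keeps the iron of many of them in its reduced state, and it is a common additive in reprogramming medium.

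Single-end RNA sequencing was made from MEF-derived pre-iPSCs, cells that started as mouse embryonic fibroblasts and stalled on the way to induced pluripotency. Wildtype (WT) cells and cells with a Kdm3b knockout (KO) were each sampled on day 0, on day 2 and on day 10 of a treatment named AA+2i, which is 50 µg/mL ascorbic acid with CHIR-99021, an inhibitor of GSK3, and PD-0325901, an inhibitor of MEK. The medium of all groups was that used for ESCs, and held 15% serum and leukaemia inhibitory factor, and the cultures were split on day 4. Each of the 6 groups had 2 libraries, lettered A and B, and 1 library came from wildtype V6.5 embryonic stem cells (ESCs), labelled AA+2i at 0hr. The titles of the day 0 libraries say DMSO and their treatment label says AA+2i, and these libraries were taken as the untreated start. The labels do not say how Kdm3b was disrupted, how many clones each genotype stands for, or whether A and B were separate cultures, so p-values measure only the spread between these libraries, which may be technical. In bulk RNA, fewer cells that express a gene and less of its RNA per cell cannot be told apart.

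Library totals ranged from 14891294 to 26430050 expected counts. Kdm3b lay between 146 and 261 CPM (expected counts scaled by the library's total) in the WT libraries, between 17.7 and 65.5 CPM in the KO libraries and at 139 CPM in ESCs. The 10 fibroblast markers summed to between 0.0898 and 0.199 CPM in KO at day 0, with 8 to 9 of the 10 at 0, between 6.31 and 12.8 CPM in WT at day 0, between 75.1 and 102 CPM in WT at day 10, between 3.39 and 5.75 CPM in KO at day 10, with 3 to 7 of the 10 at 0, and to 259 CPM in ESCs. The 8 naive pluripotency markers summed to between 888 and 2132 CPM in WT and 906 and 2548 CPM in KO at day 0, between 4111 and 4608 CPM in WT at day 10, between 1162 and 1333 CPM in KO at day 10 and to 4049 CPM in ESCs. Klf4, a reprogramming factor, made up most of these sums at day 0 and in KO at day 10 and a small part in WT at day 10 and ESCs: 840 to 2073 CPM in WT and 900.2 to 2541 CPM in KO at day 0, 318 to 356 CPM in WT and 622 to 824 CPM in KO at day 10, and 103 CPM in ESCs. The genotypes already differed in the other naive markers before treatment. The test described below called 4 of the 8 lower in KO than in WT at day 0 (50%, beside 8.29% of all genes in either direction). At day 2 it called 7 of the 8 lower in KO (87.5%, beside 10.5% of all genes in either direction). Immune markers summed to at most 33.4 CPM and endothelial markers to at most 94.7 CPM, while endoderm markers, several of which encode basement membrane proteins, lay between 366 and 1736 CPM in the pre-iPSC libraries. The part of these markers in the results below was not tested. At days 0 and 2 the B libraries drew their reads from longer transcripts than the A libraries (read-weighted mean length 3716 to 3921 against 2986 to 3135 bases), whereas all 4 day 10 libraries lay between 3325 and 3437 bases.

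The members were on the whole well expressed. In TPM, a level corrected for transcript length, the mean over the 12 pre-iPSC libraries was highest for Plod2 at 114, Plod3 at 82.8, Egln2 at 71.7 and Lepre1 at 70.2 TPM. Apart from the 3 untested members and Leprel1 (0.349 TPM), the lowest were Jmjd5 at 9.49 and Jmjd4 at 9.99 TPM.

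Members were tested with edgeR's quasi-likelihood test across all 14324 genes that passed the filter, and called where the false discovery rate (FDR, by the Benjamini-Hochberg method) was below 0.05. In WT between day 0 and day 10, 5 members rose (Kdm5b, Phf8, Alkbh2, Alkbh5 and Phyh), beside 21.0% of all genes, and 7 fell (Kdm2a, Phf2, Jhdm1d, Jmjd4, Egln2, Leprel2 and Alkbh3), beside 13.1%. These 12 of 39 are 30.8%, beside 34.1% of all genes tested. In KO over the same time, Phf8 and Alkbh2 rose (beside 9.93% of all genes) and Jhdm1d fell (beside 5.19%), 3 members or 7.69%, beside 15.1% of all genes in either direction. KO against WT at day 10 called 8 members (20.5%, beside 32.3% of all genes): Kdm4b, Phf2, Egln1, Egln2 and Alkbh3 were higher in KO (12.4% of all genes were), and Kdm5b, Alkbh2 and Phyh lower (19.9% of all genes). At day 0 P4ha2 was the 1 member called between the genotypes (2.56%, beside 8.29% of all genes). In each of these comparisons the share of members called was below that of all genes. The counts rest on single libraries: without WT day 10 A or B the 12 became 4, the 3 in KO became 0 or 1 without WT day 10 A or B, WT day 2 B, or either library of KO day 0 or KO day 10, and the 8 became 3 to 5 without any 1 of the 4 libraries of day 10. The median log2 fold change of the 39 members was -0.09 in WT by day 10 (all genes -0.03), -0.02 in KO by day 10 (all genes -0.01) and 0.21 in KO against WT at day 10 (all genes -0.02).

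No member was called at day 2. In WT against day 0 it was 0 of 39 (5.30% of all genes), while 6 had an unadjusted p below 0.05 and DESeq2 called 4. The count in KO against day 0 was 0 (6.39% of all genes), while 5 had an unadjusted p below 0.05 and DESeq2 called 2. Between the genotypes at day 2 it was 0 (10.5% of all genes), while 7 had an unadjusted p below 0.05 and DESeq2 called 1, Egln3. The interaction of genotype with day 2 called 0 members (0.195% of all genes), and neither the unadjusted p nor DESeq2 passed any (0 and 0).

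The letters A and B behaved as a pairing at days 0 and 2. With a replicate block for those days, a fit chosen after seeing the data, the spread shrank and many more genes were called. Calls below are from the fit without that block unless it is named. Members called were then 13 in WT by day 2 (33.3%, beside 30.1% of all genes), 14 in KO by day 2 (35.9% beside 29.5%), 20 in WT by day 10 (51.3% beside 65.7%) and 17 in KO by day 10 (43.6% beside 47.8%). In KO against WT they were 16 at day 0 (41.0% beside 30.4%), 19 at day 2 (48.7% beside 36.7%) and 22 at day 10 (56.4% beside 63.8%), and the day 10 interaction called 15 (38.5% beside 44.6%). The day 2 interaction stayed at 0 members (7.74% of all genes). Comparisons that use the same libraries, such as WT by day 10 and KO against WT at day 10, are not independent of each other.

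**Figure D1:**
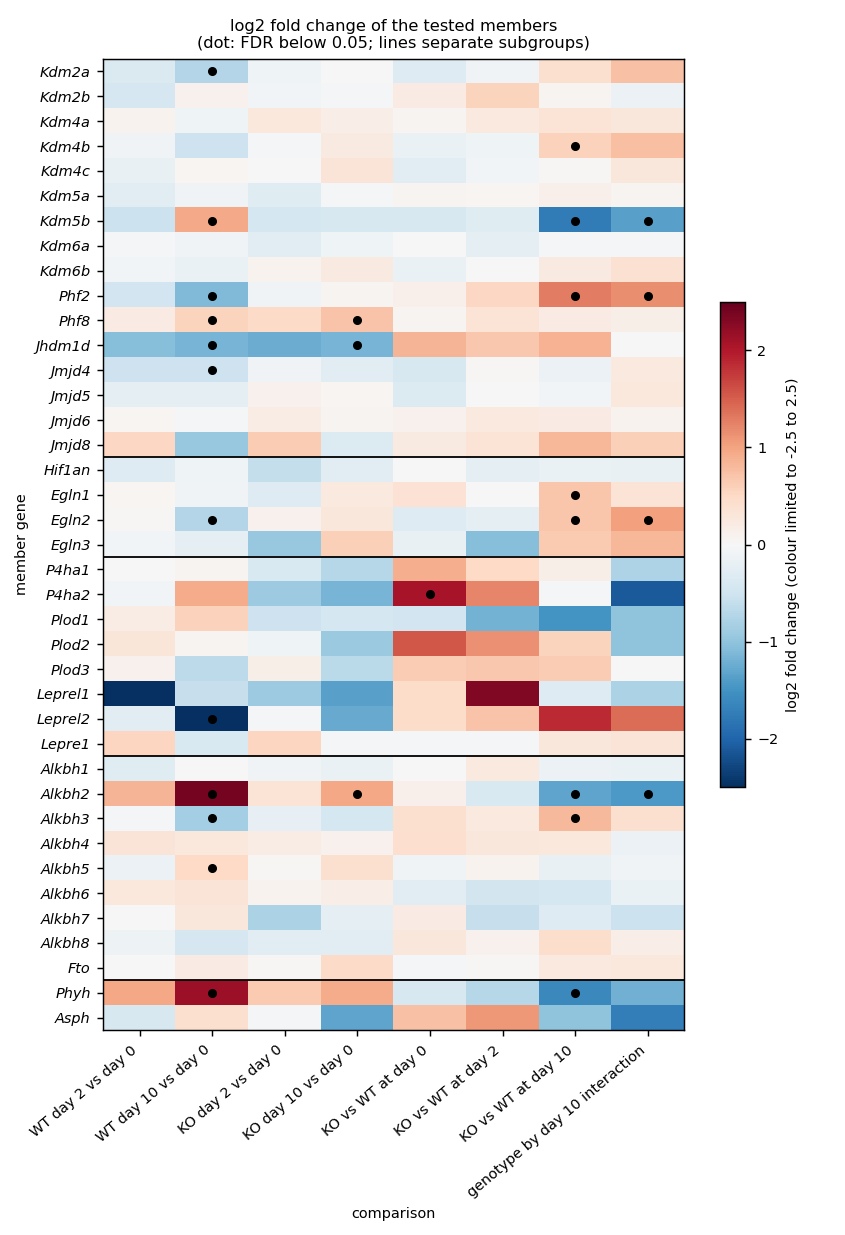
Log2 fold change of each of the 39 tested members (rows, in subgroups separated by lines) in 8 comparisons (columns), red for higher and blue for lower, with a dot at FDR under 0.05 in edgeR's quasi-likelihood test without a block. Most dots lie in the columns for WT by day 10, with 12 members, and for KO against WT at day 10, with 8, while the 3 columns for day 2 hold none.

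The test of the difference itself, the interaction of genotype with day 10, called 4 members (10.3%, beside 12.6% of all genes). Phf2 and Egln2 moved up in KO relative to WT (6.35% of all genes did), and Kdm5b and Alkbh2 moved down (6.20%). The count was 0 to 2 without any 1 of the day 0 or day 10 libraries. Because the data turn on these 4 genes, the 250 bases before an annotated start of each are shown. They are from RefSeq on GRCm38.p6, whereas the files were counted on mm9. The Alkbh2 window lies inside that gene's span, 114123926 to 114131233 on chromosome 5, and not beside its upstream end. The windows of Kdm5b, Phf2 and Egln2 begin or end beside the spans of their genes. Capitals mark each ACGTG or GCGTG, the core letters that HIF binds, searched on both strands.
Kdm5b, chr1:134559928-134560177, plus strand: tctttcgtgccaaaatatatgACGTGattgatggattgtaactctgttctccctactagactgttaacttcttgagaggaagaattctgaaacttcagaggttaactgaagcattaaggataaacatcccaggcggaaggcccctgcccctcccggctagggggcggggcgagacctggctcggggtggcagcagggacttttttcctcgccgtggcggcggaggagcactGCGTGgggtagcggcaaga
Phf2, chr13:48870886-48871135, minus strand: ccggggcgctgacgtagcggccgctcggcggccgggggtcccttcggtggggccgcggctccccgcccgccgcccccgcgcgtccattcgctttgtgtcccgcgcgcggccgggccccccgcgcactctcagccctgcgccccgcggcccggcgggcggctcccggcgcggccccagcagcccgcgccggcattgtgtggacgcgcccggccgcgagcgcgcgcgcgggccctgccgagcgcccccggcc
Egln2, chr7:27166803-27167052, minus strand: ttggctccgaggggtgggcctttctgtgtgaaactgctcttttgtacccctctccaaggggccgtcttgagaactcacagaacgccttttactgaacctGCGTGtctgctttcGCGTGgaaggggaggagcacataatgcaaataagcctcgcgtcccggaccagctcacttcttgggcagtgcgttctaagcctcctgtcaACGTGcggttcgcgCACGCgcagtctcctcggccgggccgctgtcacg
Alkbh2, chr5:114128219-114128468, minus strand: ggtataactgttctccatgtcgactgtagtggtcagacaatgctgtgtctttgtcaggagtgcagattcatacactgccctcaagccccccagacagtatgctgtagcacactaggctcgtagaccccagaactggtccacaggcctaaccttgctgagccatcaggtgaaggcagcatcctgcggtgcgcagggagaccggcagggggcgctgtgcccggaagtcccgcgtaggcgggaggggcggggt
The Egln2 window, the first of 2 in the table, held 1 ACGTG and 3 GCGTG and the Kdm5b window 1 of each, while the Phf2 and Alkbh2 windows held neither. Of 32851 windows of that length in the table, 16.6% held ACGTG, 28.2% GCGTG and 38.6% at least 1 of them. AAGGTCA, the letters that Esrrb binds, was in 4.08% of the windows and in none of these 4. The Phf2 window was 85.6% G or C with 50 CpG, against a median of 52.4% and 6 CpG over all windows, and the other 3 windows held 13 (Kdm5b), 20 (Egln2) and 11 CpG (Alkbh2). A match is a string of letters and not a shown binding site.

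Among the histone demethylases, Kdm5b, which removes methyl groups from histone H3 lysine 4, had the widest called difference between the genotypes. It had 125 (A) and 172 (B) CPM in WT at day 0, 95.7 and 113 CPM at day 2, and 295 and 299.6 CPM at day 10. KO had 97.1 and 119 CPM at day 0, 73.0 and 88.2 CPM at day 2, and 86.8 and 83.9 CPM at day 10, and ESCs had 313 CPM. Both WT libraries of day 10 stood above all other pre-iPSC libraries and beside the ESC level, while KO at day 10 lay below KO at day 0. The rise in WT was 1.93-fold (log2 fold change 0.95, SE 0.167, FDR = 0.00249), KO at day 10 was 3.37-fold lower than WT (log2 fold change -1.75, SE 0.170, FDR = 0.000196), and the interaction was -1.35 on the log2 scale (SE 0.235, FDR = 0.00709). The interaction was lost without KO day 10 B (-1.28, FDR = 0.0565). In KO the log2 fold change by day 10 was -0.40 (FDR = 0.153), which was called with the replicate block at days 0 and 2 (-0.40, SE 0.0903, FDR = 0.00235).

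Phf2, a demethylase that acts on histone H3 lysine 9, ran the other way. It had 62.2 and 90.8 CPM in WT at day 0, 48.9 and 62.7 CPM at day 2, and 37.3 and 36.2 CPM at day 10. KO had 62.9 and 97.8 CPM at day 0, 65.3 and 86.8 CPM at day 2, and 84.4 and 89.0 CPM at day 10, and ESCs had 16.5 CPM. The genotypes overlapped at day 0 and did not at day 10. WT fell 2.15-fold by day 10 (log2 fold change -1.10, SE 0.220, FDR = 0.00476), and KO at day 10 was 2.44-fold above WT (log2 fold change 1.29, SE 0.221, FDR = 0.00264). The interaction was 1.16 on the log2 scale (SE 0.309, FDR = 0.0408). It stayed called when library A of KO day 2 or library B of KO day 0 was left out. Leaving out any of the other 10 libraries in turn gave 0.94 to 1.40 with FDR from 0.0506 to 0.156. With the replicate block at days 0 and 2 it was 1.17 (SE 0.132, FDR = 8.18e-06).

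Jhdm1d (Kdm7a), an eraser of methyl marks on histone H3 lysines 9 and 27, fell in both genotypes. It had 75.1 and 138 CPM in WT at day 0, 42.3 and 61.3 CPM at day 2, and 50.2 and 47.5 CPM at day 10. KO had 138 and 232 CPM, then 57.3 and 101 CPM, then 79.8 and 92.0 CPM, and ESCs had 22.4 CPM. Within each genotype the day 0 libraries lay above those of both later days. The log2 fold change by day 10 was -1.17 in WT (SE 0.333, FDR = 0.0244) and -1.15 in KO (SE 0.332, FDR = 0.0483). By day 2 it was -1.07 (FDR = 0.114) and -1.24 (FDR = 0.0651), which passed with the replicate block at days 0 and 2 (FDR = 4.60e-06 and 5.52e-07). The WT call was lost without WT day 10 A, WT day 10 B or WT day 0 B (-1.23 to -0.74). The KO call held when library A of KO day 0 or either library of KO day 2 was left out, but not without any of the others, where it was -1.24 to -0.77.

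Phf8, which erases methyl marks on histone H3 lysine 9 and histone H4 lysine 20, rose in both genotypes. WT went from 27.3 and 39.5 CPM at day 0 through 36.8 and 41.1 CPM to 52.5 and 49.4 CPM at day 10, and KO from 30.2 and 36.6 CPM through 43.9 and 49.6 CPM to 60.5 and 53.4 CPM, with ESCs at 30.7 CPM. Day 10 and day 0 did not overlap in either genotype, and the 4 day 10 libraries lay above the ESC library. The log2 fold change was 0.56 in WT (SE 0.166, FDR = 0.0287) and 0.71 in KO (SE 0.166, FDR = 0.0215). The WT call held when library B of WT day 0 or library A of KO day 0 or KO day 2 was left out, but not without any of the others, where it was 0.35 to 0.60. The KO call was lost without KO day 0 A or B, KO day 10 A or B, or WT day 2 B (0.62 to 0.83).

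Kdm2a, a demethylase of histone H3 lysine 36 that binds CpG islands, fell in WT from 149 and 203 CPM at day 0 to 114 and 106 CPM at day 10, with ESCs at 74.1 CPM (log2 fold change -0.73, SE 0.169, FDR = 0.00976). KO had 125 and 145 CPM at day 0 and 146 and 136 CPM at day 10, which overlap. The WT call was lost without WT day 10 A, WT day 10 B or WT day 0 B (-0.80 to -0.56). Jmjd4, which hydroxylates a translation termination factor and is no known histone demethylase, fell in WT from 22.7 and 30.1 to 18.5 and 20.0 CPM (log2 fold change -0.51, SE 0.158, FDR = 0.0348). Its call held when library A of either genotype at day 0 or either library of KO day 2 was left out, but not without any of the others, where it was -0.58 to -0.36. Jmjd4 overlaps Snap47 and Zfp867 in the RefSeq annotation. In WT by day 10 neither was called, though both went down. The log2 fold change was -0.52 for Snap47 (SE 0.434, FDR = 0.41) and -0.80 for Zfp867 (SE 0.274, FDR = 0.0514). The strand setting of the counting is not given, so reads of Jmjd4 and these genes may not be separable where they overlap. Kdm4b, a demethylase of histone H3 lysine 9, had 38.1 and 43.4 CPM in WT at day 10 and 61.2 and 56.5 CPM in KO (log2 fold change 0.58, SE 0.184, FDR = 0.0402). That call held when either library of KO day 0 or library A of KO day 2 was left out, but not without any of the others, where it was 0.51 to 0.68.

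The other 9 tested genes of this subgroup were called in no comparison without the block, where single comparisons called 0.195% to 34.1% of all genes. With the block, single comparisons called 7.74% to 65.7% of all genes, and 5 of the 9 were called in at least 1. Kdm2b was lower in WT by day 2 (-0.43, FDR = 0.00184) and higher in KO against WT there (0.57, FDR = 0.000128), Kdm4a was higher in KO against WT at day 10 (0.34, FDR = 0.00322), Kdm4c rose in KO by day 10 (0.33, FDR = 0.00715), Kdm5a fell in KO by day 2 (-0.32, FDR = 0.0385), and Jmjd8 fell in WT by day 10 (-0.93, FDR = 0.000117). Kdm6a, Kdm6b, Jmjd5 and Jmjd6 were not called with the block either. The 9 include the histone H3 lysine 27 demethylases Kdm6a and Kdm6b, the lysine 4 demethylase Kdm5a, the lysine 9 and 36 demethylases Kdm4a and Kdm4c, and Kdm2b. Jmjd8, a protein of the endoplasmic reticulum, had 21.6 and 23.6 CPM in WT at day 10 and 38.7 and 39.0 CPM in KO, which do not overlap (log2 fold change 0.83, FDR = 0.252, and FDR = 0.000381 with the replicate block at days 0 and 2). The summed level of the 17 genes was 1275 to 1294 CPM in WT and 1257 to 1290.3 CPM in KO at day 10. These near sums hold opposite moves, since Kdm5b alone gave a mean of 297 CPM in WT and 85.4 CPM in KO. Of the 16 tested genes, 12 had a log2 fold change above 0 in KO against WT at day 10 and 4 below. Their median was 0.21, beside -0.02 for all genes.

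**Figure D2:**
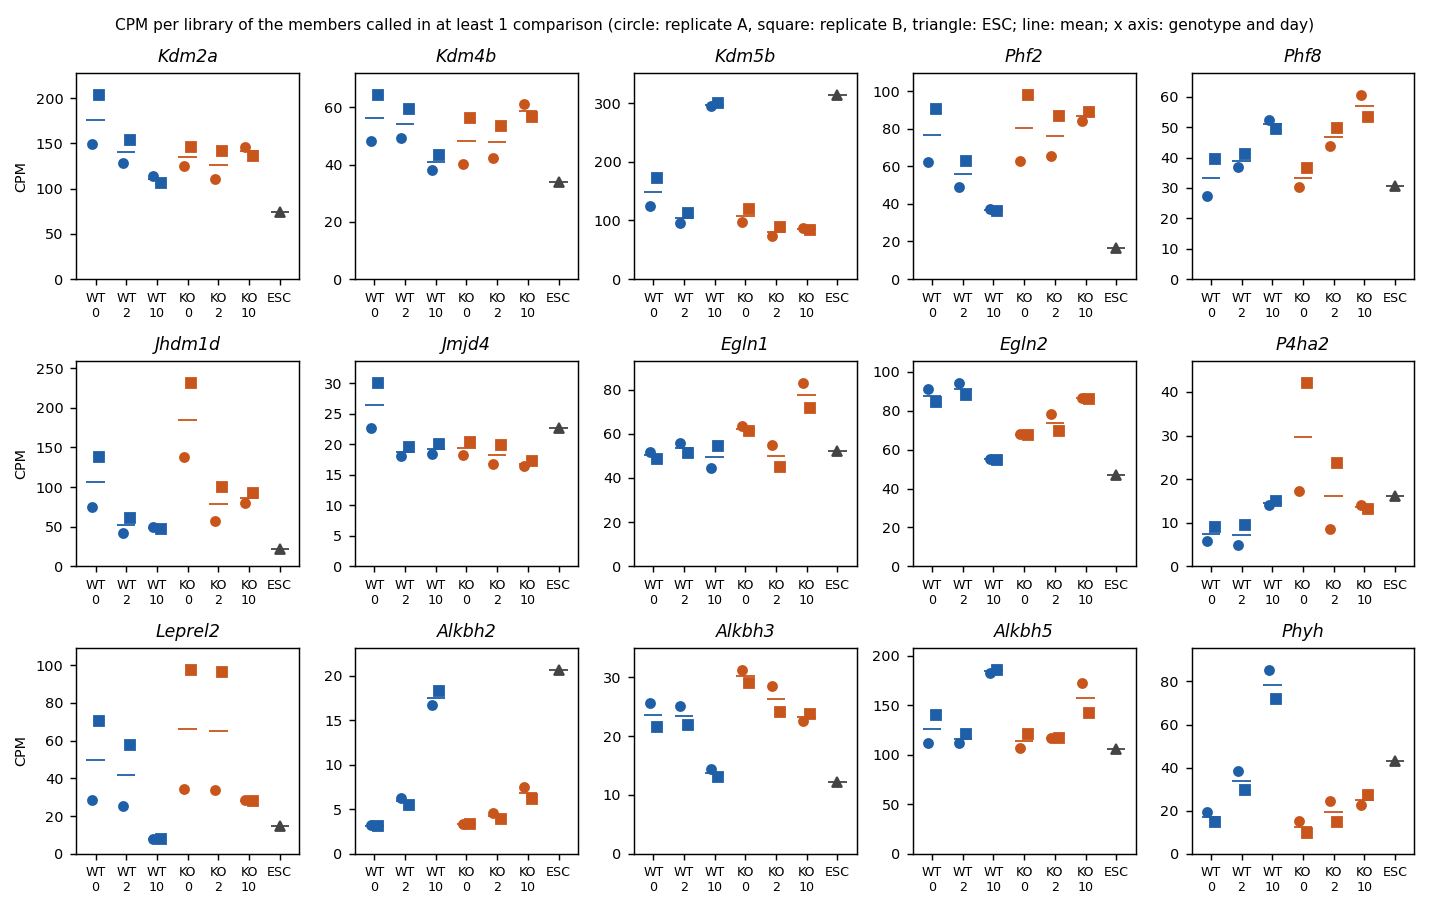
CPM in each library (y axis, from 0) for the 15 members called in at least 1 comparison, by genotype and day, with circles for A, squares for B, a triangle for the ESC library and a line at the mean. Kdm5b, Alkbh2 and Phyh stand apart in WT at day 10, and A and B lie far apart at days 0 and 2 for Leprel2, P4ha2 and Jhdm1d.

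The HIF hydroxylases mark the alpha subunits of hypoxia-inducible factor. Egln1, Egln2 and Egln3 hydroxylate prolines, which sends the subunit for destruction, and Hif1an hydroxylates an asparagine, which blocks a coactivator. Egln2 had 91.0 and 84.5 CPM in WT at day 0, 94.4 and 88.2 CPM at day 2, and 55.0 and 54.9 CPM at day 10. KO had 67.9 and 67.6 CPM, then 78.2 and 69.5 CPM, then 86.3 and 86.2 CPM, and ESCs had 47.0 CPM. The order of the genotypes turned between day 2 and day 10, with no overlap at any day. WT fell 1.67-fold (log2 fold change -0.74, SE 0.166, FDR = 0.00826), KO at day 10 was 1.62-fold above WT (log2 fold change 0.70, SE 0.166, FDR = 0.0117), and the interaction was 1.02 (SE 0.234, FDR = 0.0228). Without WT day 10 A or WT day 10 B, the fall in WT (-0.76 to -0.75, FDR = 0.0515 to 0.0574) and the difference at day 10 (0.71 to 0.73, FDR = 0.0622 to 0.0751) were not called. The interaction was lost without WT day 0 A, KO day 0 B or any of the 4 day 10 libraries (0.94 to 1.07, FDR = 0.0524 to 0.0942).

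Egln1, the main oxygen sensor of most cells, had 44.5 and 54.7 CPM in WT at day 10 and 83.2 and 71.6 CPM in KO (log2 fold change 0.69, SE 0.202, FDR = 0.0296). At day 0 it was at 50.3 ± 2.27 CPM in WT and 62.3 ± 1.55 CPM in KO (mean ± SD, n = 2), not called without the block. At day 10 the genotypes did not overlap, and ESCs had 52.2 CPM, beside WT. The call was lost without any 1 of the 4 day 10 libraries (0.57 to 0.85, FDR = 0.0508 to 0.163). Egln3, itself a HIF target in many cells, had 34.4 and 27.1 CPM in KO at day 2 against 73.7 and 62.6 CPM in WT, with no overlap (log2 fold change -1.07, SE 0.319, FDR = 0.0701, and FDR = 0.000742 with the replicate block at days 0 and 2). At day 10 its 2 libraries differed within each genotype, 47.9 and 74.9 CPM in WT and 115 and 72.2 CPM in KO, and without the block edgeR called it in no comparison. With the block it fell in KO by day 2 (-0.96, FDR = 0.00262) and was higher in KO against WT at day 10 (0.65, FDR = 0.0093). Hif1an lay between 39.2 and 82.7 CPM, and fell by day 2 with the block alone, in WT (-0.33, FDR = 0.0443) and in KO (-0.59, FDR = 0.0016). Summed over the 4 genes, WT at day 10 had 219 to 254 CPM and KO 299.8 to 336 CPM, and the median difference between KO and WT there was 0.67 in log2.

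Of 19 genes of the HIF pathway and its targets, WT by day 10 raised 2 and lowered 4 (31.6%, beside 34.1% of all genes), and KO against WT at day 10 called 3 higher and 0 lower (15.8%, beside 32.3%). Pdk1, which keeps pyruvate from the mitochondria, fell in WT from 105 ± 11.8 to 58.0 ± 2.65 CPM (mean ± SD, n = 2; log2 fold change -0.93, FDR = 0.0148) and was higher in KO at day 10 at 134 ± 18.7 CPM (log2 fold change 1.25, FDR = 0.00423). Pfkfb3, an activator of glycolysis, rose in both genotypes by day 10 (log2 fold change 1.5 in WT and 1.83 in KO). Epas1, which encodes the HIF-2 alpha subunit, fell in WT by day 10 (log2 fold change -1.55, FDR = 0.000249). WT had 198 ± 34.2, 75.3 ± 4.12 and 70.1 ± 1.15 CPM at days 0, 2 and 10. KO had 75.8 ± 12.5, 13.3 ± 0.171 and 63.0 ± 10.7 CPM, called lower than WT at days 0 and 2 and not at day 10. Vegfa, also of this list, had 34.8 ± 17.5 CPM in WT and 102 ± 58.2 CPM in KO at day 0. At day 10 it had 110 ± 9.22 CPM in WT and 46.3 ± 5.09 CPM in KO, a difference not called. Its rise in WT by day 10 was called, and at day 2 it was called higher in KO. The interaction with day 10 called 2 of the 19 (10.5%, beside 12.6% of all genes), Epas1 higher and Vegfa lower. The median of the 19 genes was 0.44 in KO against WT at day 10, beside -0.02 for all genes, with 15 above 0 and 4 below.

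The collagen hydroxylases act in the endoplasmic reticulum. P4ha subunits hydroxylate prolines that let the triple helix form, Plod enzymes hydroxylate lysines used in cross-links, and the Lepre enzymes modify single prolines. Leprel2 (P3h3) had 28.6 and 70.4 CPM in WT at day 0, 25.5 and 57.8 CPM at day 2, and 8.0 and 8.02 CPM at day 10. KO had 34.5 and 97.6 CPM, then 33.9 and 96.5 CPM, then 28.3 and 28.0 CPM, and ESCs had 14.6 CPM. WT at day 10 lay below every other library, and at days 0 and 2 each B library was far above its A library. WT fell 6.30-fold (log2 fold change -2.66, SE 0.649, FDR = 0.0123), a call lost without WT day 10 A, WT day 10 B or WT day 0 B (-2.67 to -1.96). KO at day 10 was above WT with no overlap (log2 fold change 1.86, SE 0.635, FDR = 0.0522), which passed with the replicate block at days 0 and 2 (FDR = 1.35e-08).

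P4ha2, a catalytic subunit of prolyl 4-hydroxylase, had 5.79 and 8.93 CPM in WT at day 0 and 17.4 and 42.1 CPM in KO, 4.16-fold higher (log2 fold change 2.06, SE 0.520, FDR = 0.0439). The call held when library A of KO day 0 or either library of KO day 2 was left out, but not without any of the others, where the difference was 1.33 to 2.35. The difference was 1.51 between the A libraries and 2.18 between the B libraries. At day 2 WT had 4.84 and 9.60 CPM and KO 8.54 and 23.7 CPM, which overlap, and at day 10 WT had 14.0 and 15.0 CPM and KO 14.2 and 13.1 CPM, beside 16.1 CPM in ESCs. By day 10 P4ha2 thus no longer differed beyond the spread between libraries (log2 fold change -0.04, SE 0.504).

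Plod2, the lysyl hydroxylase of collagen telopeptides, had 89.0 and 150.5 CPM in WT at day 0 and 226 and 454 CPM in KO. The 2 genotypes did not overlap, and the difference was not called (log2 fold change 1.56, SE 0.448, FDR = 0.0731) unless the replicate block at days 0 and 2 was used (1.52, SE 0.125, FDR = 4.99e-07). By day 10 WT had 136 and 124 CPM and KO 193 and 176 CPM, and ESCs had 60.6 CPM. Plod1, another lysyl hydroxylase, went the other way at day 10, with 63.6 and 52.8 CPM in WT and 21.8 and 18.3 CPM in KO (log2 fold change -1.49, FDR = 0.112, and FDR = 5.49e-07 with that block). Plod3, P4ha1 and Lepre1 were called in no comparison without the block. Leprel1 had at most 1.09 CPM in any pre-iPSC library. With the block, 6 of the 8 tested collagen hydroxylases were called in KO against WT at day 0, 5 higher and 1 lower, beside 30.4% of all genes, and 7 at day 2, 6 higher and 1 lower, beside 36.7%.

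Of 10 partners of these enzymes, KO against WT at day 10 called 3 (30%, beside 32.3% of all genes). Serpinh1, the collagen chaperone, was higher in KO at 496 ± 11.2 against 255 ± 7.14 CPM (log2 fold change 1.01, FDR = 0.029), and so was Leprel4, a scaffold protein of the prolyl 3-hydroxylase complex, at 59.4 ± 2.90 against 26.4 ± 3.92 CPM (log2 fold change 1.22, FDR = 0.0015). Lox, which cross-links collagen, was lower in KO at 0.34 ± 0.138 against 7.55 ± 2.96 CPM (log2 fold change -4.40, FDR = 0.000647). It was already called lower in KO at day 0, at 0 CPM against 0.813 ± 0.0255 CPM in WT, and at day 2. The ESC library had 45.5 CPM of Lox. WT by day 10 raised Lox and lowered Leprel4 and Fkbp10.

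The Alkbh genes and Fto are relatives of a bacterial repair enzyme, and several, though not all, remove alkyl groups from DNA or RNA. Alkbh2, a repair enzyme for alkylated bases of DNA, had 3.26 and 3.06 CPM in WT at day 0, 6.29 and 5.45 CPM at day 2, and 16.8 and 18.2 CPM at day 10. KO had 3.37 and 3.33 CPM, then 4.61 and 3.89 CPM, then 7.50 and 6.12 CPM, and ESCs had 20.7 CPM. Day 10 lay above day 0 in both genotypes, and KO at day 10 stood between KO at day 2 and WT at day 10. WT rose 5.28-fold (log2 fold change 2.40, SE 0.241, FDR = 0.000166), the largest rise of any tested member in that comparison. KO rose 1.94-fold (log2 fold change 0.96, SE 0.237, FDR = 0.0273), a call lost without either library of WT day 10 or KO day 0, or KO day 10 A (0.81 to 1.02). KO at day 10 was 2.49-fold below WT (log2 fold change -1.31, SE 0.232, FDR = 0.00295). The interaction was -1.44 (SE 0.332, FDR = 0.0235), and was lost without any 1 of the 4 day 0 libraries, WT day 10 A or B, or KO day 10 B (-1.51 to -1.26).

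Alkbh2 shares part of its span, on chromosome 5 between 114123926 and 114131233 (GRCm38.p6), with Ung, the uracil-DNA glycosylase gene. Ung had 35.5 and 31.5 CPM in WT at day 0 and 125 and 133 CPM at day 10, and 45.8 and 40.3 CPM in KO at day 0 and 58.0 and 48.4 CPM at day 10. Its log2 fold change was 1.88 in WT by day 10 (SE 0.247, FDR = 0.000582), -1.23 in KO against WT at day 10 (FDR = 0.0049) and -1.64 in the interaction (FDR = 0.0151). The sources used here do not say that counting used strand, so reads of the 2 genes may not be separable where they overlap, and the values of Alkbh2 carry that limit.

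Alkbh3, another repair enzyme for alkylated bases, fell in WT from 25.6 and 21.6 to 14.3 and 13.1 CPM by day 10 (log2 fold change -0.85, SE 0.210, FDR = 0.0131). At day 0 Alkbh3 was at 30.2 ± 1.54 CPM in KO and 23.6 ± 2.83 CPM in WT (mean ± SD, n = 2), not called without the block. KO at day 10 had 22.6 and 23.7 CPM (KO against WT, log2 fold change 0.80, SE 0.211, FDR = 0.0183), and ESCs had 12.2 CPM, beside WT at day 10. The fall in WT was lost without WT day 0 A, WT day 10 A or WT day 10 B (-0.93 to -0.67), and the difference between genotypes without any 1 of the 4 day 10 libraries (0.75 to 0.89). Alkbh5, which removes N6-methyl marks from adenosines of RNA, rose in WT from 112 and 139.8 CPM to 182 and 186 CPM (log2 fold change 0.49, SE 0.157, FDR = 0.0388), and the call was lost without any 1 of the 12 libraries (0.38 to 0.59, FDR = 0.0533 to 0.232). In KO Alkbh5 had 114 ± 9.79 CPM at day 0 and 157 ± 21.7 CPM at day 10 (mean ± SD, n = 2), which was not called without the block. Fto, which removes the same mark as Alkbh5, lay between 63.2 and 102 CPM. Without the block it was called in no comparison, like Alkbh1, Alkbh4, Alkbh6, Alkbh7 and Alkbh8. With the replicate block at days 0 and 2, Fto was higher in KO by day 10 (log2 fold change 0.48, FDR = 0.000784) and above WT there (0.25, FDR = 0.0306), Alkbh8 fell in WT by day 10 (-0.42, FDR = 0.0188) and was higher in KO (0.44, FDR = 0.0153), and Alkbh6 was lower in KO at day 10 (-0.43, FDR = 0.0339). Alkbh7 fell in KO by day 2 with that block (-0.78, FDR = 0.00329), while Alkbh1 and Alkbh4 were not called with it either. Of 8 writers and readers of that mark, 0 were called in any of the 7 comparisons between groups, which called 5.30% to 34.1% of all genes. At most 1 of the 8 had an unadjusted p under 0.05 in each.

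Phyh, the peroxisomal enzyme that starts the breakdown of phytanic acid, had 19.1 and 14.8 CPM in WT at day 0, 38.2 and 29.5 CPM at day 2, and 85.4 and 71.7 CPM at day 10. KO had 15.0 and 9.73 CPM, then 24.5 and 14.6 CPM, then 22.8 and 27.1 CPM, and ESCs had 43.2 CPM. WT at day 10 lay above every other library, ESCs included. WT rose 4.40-fold (log2 fold change 2.14, SE 0.365, FDR = 0.00219), and KO at day 10 was 3.05-fold below WT (log2 fold change -1.61, SE 0.359, FDR = 0.00892). The latter call was lost without WT day 10 A or KO day 10 A (-1.48 to -1.45, FDR = 0.0538 to 0.0619). The interaction was not called (-1.21, SE 0.501, FDR = 0.166, and FDR = 0.000177 with the replicate block at days 0 and 2). Asph, which hydroxylates aspartate and asparagine in EGF-like domains, had 36.6 and 36.8 CPM in WT at day 10 and 17.2 and 18.3 CPM in KO, with no overlap, whereas at day 0 WT had 19.9 and 33.8 CPM and KO 26.3 and 59.6 CPM. Its interaction at day 10 was -1.72 (SE 0.649, FDR = 0.127, and FDR = 7.71e-06 with that block). Bbox1, the last step of carnitine synthesis, had 1 count in 1 library. Of 4 other carnitine genes 1, Shmt2, was called in the comparisons between groups, higher in KO at day 2 (log2 fold change 0.94, FDR = 0.0196). That is 25% of the 4, beside 10.5% of all genes.

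Of 7 ascorbate supply genes, 3 were called in WT by day 10 and 3 in KO against WT there (42.9% each, beside 34.1% and 32.3% of all genes). WT by day 10 raised Slc2a3, which imports glucose and the oxidised form of ascorbate, and Gulo, the last enzyme of ascorbate synthesis, and lowered Gsto1, a dehydroascorbate reductase. Slc2a3 went from 159.7 ± 53.9 to 1130 ± 87.9 CPM in WT by day 10 (log2 fold change 2.78, FDR = 0.00352). In KO it went from 48.3 ± 24.7 to 174 ± 56.4 CPM, a rise that was also called. Slc2a3 was called lower in KO than in WT at day 2 as well as at day 10, and its interaction of genotype with day 10 was not called. Gulo, named after its values were seen since its mean is below 1 CPM, was at 3.77 ± 0.668 CPM in WT and 0.0928 ± 0.0455 CPM in KO at day 10. Gsto1 was higher in KO at 174 ± 6.59 against 80.4 ± 1.04 CPM (log2 fold change 1.16, FDR = 0.0336). Among genes of 2-oxoglutarate supply, Got1, an aspartate aminotransferase, rose in WT by day 10 (log2 fold change 1.99, FDR = 0.000706), and was lower in KO at day 10 at 51.3 ± 2.09 against 200.1 ± 9.69 CPM (log2 fold change -1.92, FDR = 0.00103). Of 8 genes that handle succinate and fumarate, 0 were called in WT by day 10 (34.1% of all genes), with 2 at an unadjusted p under 0.05, and 0 in KO against WT at day 10 (32.3%), with 1. In KO by day 10 Fh1, the fumarate hydratase, fell (log2 fold change -0.73, FDR = 0.0169), 1 of 8 or 12.5%, beside 15.1% of all genes.

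Other relatives were listed beside the members. Of 6 KDM3 and TET genes, 2 were called in WT by day 10 (33.3%, beside 34.1% of all genes): Tet1 rose and Tet3 fell (log2 fold change 1.13 and -1.79). At day 10 KO against WT called 3 (50%, beside 32.3%), of which Tet1 and Kdm3b were lower and Tet3 higher. Of 8 other JmjC proteins found of 10 listed, 2 were called in WT by day 10 (25%, beside 34.1% of all genes). Hspbap1 rose from 18.8 ± 0.0286 to 71.2 ± 11.4 CPM. Hr, a demethylase of histone H3 lysine 9, fell from 24.4 ± 6.52 to 5.91 ± 0.216 CPM. In KO Hspbap1 went from 11.5 ± 0.207 to 9.72 ± 1.01 CPM and Hr from 10.7 ± 1.46 to 36.3 ± 1.02 CPM. The day 10 interaction called 3 of the 8 (37.5%, beside 12.6% of all genes). They were Hspbap1 (log2 -2.16, FDR = 0.00141), Hr (3.79, FDR = 0.000281) and Jarid2, which moved up in KO relative to WT. Hr and Jarid2 were already called lower in KO at day 0, 2 of the 8 (25%, beside 8.29% of all genes). The pair of FAD-dependent demethylases, which use no 2-oxoglutarate, was called in no comparison between groups, beside 5.30% to 34.1% of all genes. Of the pair, 0 had an unadjusted p under 0.05 except 1 in KO against WT at day 10.

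The spread between A and B was itself uneven over the subgroups. At days 0 and 2, the median gap of the 8 tested collagen hydroxylases, B minus A in log2(CPM + 0.5), was 0.90 to 1.46 in the 4 groups, and 7 of the 8 had B above A in all 4. Over all genes tested the median gap was 0.14 to 0.17, and 46.0% had B above A in all 4 groups. The widest gaps were those of Plod1 and Leprel2, a median of 2.61-fold each, followed by Plod3 (2.38-fold), Lepre1 (2.32-fold), Jmjd8 and P4ha2 (2.13-fold each), Asph (1.99-fold), P4ha1 (1.94-fold), Plod2 (1.90-fold), Kdm6b (1.88-fold) and Alkbh1 (1.87-fold). The histone demethylases had gaps of 0.25 to 0.45, with 13 of 16 B above A in all 4 groups, and the HIF hydroxylases of -0.23 to -0.03. A lay above B in all 4 groups for 8 of the 39 members, Egln1, Egln2, Egln3, Alkbh2, Alkbh3, Alkbh7, Fto and Phyh, beside 25.9% of all genes. At day 10 the medians of these subgroups lay between -0.12 and 0.14. The gap was seen at the days when the read-weighted length of the libraries differed. Median transcript length was 3096 bases for the collagen hydroxylases, 3100 for the HIF hydroxylases, 4935 for the histone demethylases and 2767 for all genes tested. Over all genes tested, log2 length correlated with A minus B at -0.51 to -0.39 in the 4 groups of days 0 and 2. At day 10 the correlation was 0.04 in WT and 0.02 in KO. The part of length in the gaps of the subgroups was not tested. The part of the gap in the calls above was not tested beyond the block and a length correction. What separated the A and B libraries of days 0 and 2 is not given in the labels.

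**Figure D3:**
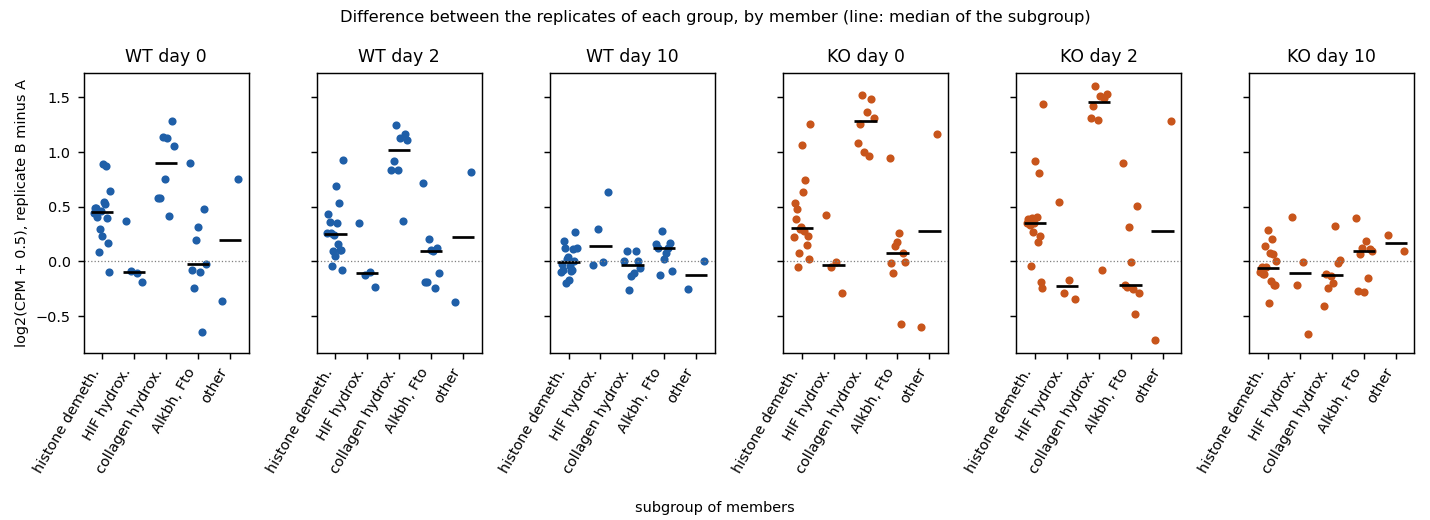
Difference between replicates B and A in log2(CPM + 0.5) (y axis) for each tested member, by subgroup, with 1 panel per group and a line at each subgroup's median. In the 4 panels of days 0 and 2 the collagen hydroxylases lie highest, with medians of 0.90 to 1.46, and in the 2 panels of day 10 all subgroups lie around 0.

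Against the 1 ESC library, a description with no test, the mean of WT at day 10 lay nearer than the mean of KO at day 10 for 31 of 39 members (79.5%), beside 62.8% of all genes tested. Both distances share that library. The median distance of the members was 0.35 for WT and 0.87 for KO in log2(CPM + 0.5), beside 0.52 and 0.69 for all genes. Kdm5b was 0.08 from the ESC level in WT and 1.87 in KO, Alkbh2 0.24 and 1.54, and Asph 0.35 and 1.37. Phf2 had not reached the ESC level in either genotype, lying 1.13 above it in WT and 2.36 above it in KO. KO was the nearer for Kdm6a, Jmjd5, Jmjd6, Hif1an, Alkbh1, Alkbh4, Alkbh5 and Phyh. P4ha3 had 3.49 CPM (70 counts) in ESCs and at most 0.661 CPM in the other libraries. The ESC library also had the highest sum of fibroblast markers, 259 CPM. That sum was 75.1 to 102 CPM in WT and 3.39 to 5.75 CPM in KO at day 10. The part of fibroblast RNA in these distances was not tested.

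**Figure D4:**
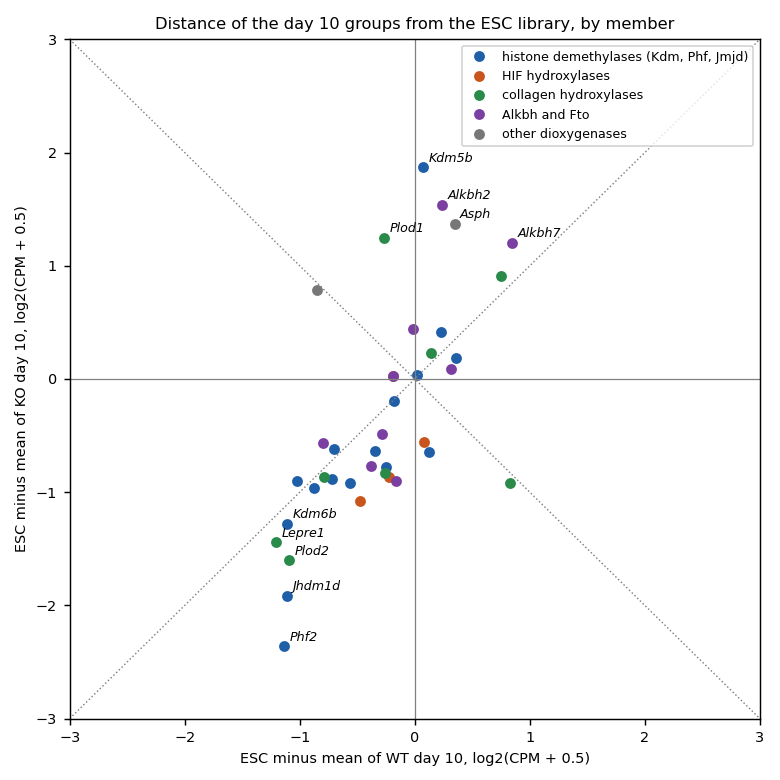
Log2(CPM + 0.5) of the ESC library minus the mean of WT at day 10 (x axis) and minus the mean of KO at day 10 (y axis) for the 39 tested members, coloured by subgroup, with dotted lines of equal distance. Kdm5b, Alkbh2 and Asph lie above and Phf2 and Jhdm1d below the dotted lines, further from ESCs in KO than in WT.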

How the data were processed

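The authors deposited expected counts and TPM per gene for each library, per the file headers. Bowtie2, RSEM and the mm9 build are named per the submitters' processing notes, with versions and strand setting not given in the sources used here. Of the deposited expected counts, 35.0 to 43.8% were not whole (tolerance 0.005), and they were rounded for the test. CPM is the expected count scaled by the library's total.

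Genes passing filterByExpr (14324) were fitted with edgeR 4.0.16 (R 4.3.3, limma 3.58.1), TMM scaling and 6 group means, leaving 6 residual degrees of freedom, with a biological coefficient of variation of 0.266, and called at an FDR under 0.05. Alternatives were DESeq2 1.42.0, RLE scaling, no filter, only the groups compared, a replicate block and leaving out each library. A block at days 0 and 2 only and removal of the length trend were chosen after seeing the data. Same-lettered libraries deviated together among the 4 groups of days 0 and 2 (correlations 0.741 to 0.812) and not with day 10 (-0.061 to 0.049). The letters come from the labels, which do not say what they mark.

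The members and lists were chosen with earlier results of these data known. Every member called in a comparison was given by library and the others by range or count. From each other list at most 4 genes were named, those of lowest FDR with a mean of at least 1 CPM over the 12 pre-iPSC libraries, and Gulo and the targeted gene Kdm3b besides. Promoter sequences are RefSeq's on GRCm38.p6, in which 35 members were matched. Figures were drawn with matplotlib 3.10.9 in Python 3.11.15. One result of the 2-oxoglutarate supply list is not reported here.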

Additional observations from a re-analysis of the deposited data

Results flagged for a closer look

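The change by day 10 differed between KO and WT for 4 members in a test of the difference itself, the interaction in edgeR's quasi-likelihood fit across all genes. On the log2 scale it was -1.35 for Kdm5b (FDR = 0.00709), 1.16 for Phf2 (FDR = 0.0408), 1.02 for Egln2 (FDR = 0.0228) and -1.44 for Alkbh2 (FDR = 0.0235). With 2 libraries a group, no library could be tested for standing apart from its group.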

How the results depend on the processing

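Over 28 calls of a member in a comparison and 532 alternative values of them, 0 changed direction, 400 stayed called and 132 did not. Kdm5b, Phf2, Alkbh2 and Phyh in WT by day 10, and Kdm5b, Phf2 and Alkbh2 in KO against WT at day 10, stayed called under all 19 alternatives. The number of members called moved as follows. In WT by day 2 it was 0, and became 4 with the replicate block on all libraries, 13 with the replicate block at days 0 and 2, 1 with the length trend removed and 4 with DESeq2. In KO by day 2 it was 0, and became 2, 14, 3 and 2 in that order. In KO by day 10 it was 3, and became 6, 17, 6 and 6, and 0 with only the groups compared. In KO against WT at day 0 it was 1, and became 3, 16, 3 and 2, and 0 with only the groups compared. In KO against WT at day 2 it was 0, and became 4, 19, 3 and 1. The 12 of WT by day 10 became 20 with the block at days 0 and 2, and the 8 of KO against WT at day 10 became 22 with it and 21 with only the groups compared. The 4 of the day 10 interaction became 9 with the replicate block on all libraries, 15 with that at days 0 and 2 and 7 with the length trend removed. The cause of these moves was not tested. Leaving out 1 library gave 4 to 13 in WT by day 10, 0 to 3 in KO by day 10, 0 to 2 in KO against WT at day 0, 3 to 10 at day 10 and 0 to 4 in the day 10 interaction. It leaves an arm with 1 library, which is taken to vary like the others.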
